A study of Mus musculus with 8 samples.

Results

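Collagen genes were followed in cells sorted from pancreatic tumours of mice. They were taken as every gene whose symbol has the form of Col, a type number, a and a chain number, which gave 44 of the 24537 genes in the count table. By structure they comprised 11 fibrillar chains, 9 basement-membrane chains, 9 fibril-associated chains, 6 chains of the beaded-filament type VI, 4 transmembrane chains, 3 short-chain network chains and 2 others. The cells came from mice of strain FVB/NJ that carried Rosa26LSL-Luc and Pdx1-Cre together with engineered tumour-driving alleles. In these mice Cre under the Pdx1 promoter, which is active in the embryonic pancreas, recombines these alleles and switches on a luciferase gene. All 8 mice carried these alleles and all received gemcitabine, a nucleoside drug that blocks DNA synthesis, at 50 mg/kg on days 1 and 4 from an age of 42 to 43 days. On days 1, 3 and 5 they also received 25 mg/kg of control IgG (4 mice, written IgG-203, IgG-343, IgG-345 and IgG-393 by the numbers in their labels) or of an antibody that neutralises the cytokine LIF (4 mice, anti-LIF-227, anti-LIF-310, anti-LIF-354 and anti-LIF-391). Tumours were taken on day 6, at about 48 days of age, 1 per mouse and each processed alone, and cells positive for the surface protein EpCAM were sorted for polyA RNA sequencing. No group without gemcitabine was analysed here, so each value compares antibodies on top of the drug.

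Collagens are secreted or membrane proteins built as trimers of chains that wind around each other. Fibrillar chains form the banded fibres of the stroma and are made mainly by fibroblasts and stellate cells, the cells that lay down the scar-like matrix of pancreatic tumours. Type IV chains form the sheet beneath epithelium and vessels, which type XV and XVIII collagens join to the tissue around it and which type VII anchors from below. Transmembrane collagens span the plasma membrane of the cell that makes them, often an epithelial cell.

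The genes of the principal type IV trimer, Col4a1 and Col4a2, lie head to head on chromosome 8 and are read in opposite directions from start sites that overlap. In the annotation of the count table (mm10) Col4a1 spans chr8:11198423-11312826 on the minus strand and Col4a2 spans chr8:11312805-11449287 on the plus strand, so that 22 bases belong to both. Those bases are shown because the chains start together and yet differed in their values below. They run on the plus strand at chr8:11312805-11312826 of GRCm38.p6 and hold a GC box, the letters GGGCGG or their reverse complement, a site class bound by the SP family of factors, in capitals.
Col4a1 and Col4a2 shared bases: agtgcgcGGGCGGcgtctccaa

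Promoter windows of 250 bases before the RefSeq start (GRCm38.p6) were found for 35 of the 44 collagens, in 38 windows. Col1a1 and Col12a1 had none in the table used. A GC box on either strand was present in 22 of the 38 collagen windows (57.9%) and in 32.7% of 32851 windows of all genes, and the median GC content was 59.0% against 52.4%. The TATA letters TATAAA were in 5 collagen windows (13.2%, against 12.4% of all). The letters TTCNNNGAA, the core of a STAT site, were in the windows of Col6a5 and Col28a1 (5.26%, against 7.02%), and the AP-1 letters TGANTCA were in that of Col6a1 (2.63%, against 6.75%). GC box matches overlap each other in a window of Col6a2 and in that of Col8a2, and a match describes letters, not binding. The windows of Col7a1 and Col23a1, which fell, and of Col3a1, the most abundant fibrillar chain, are shown with the GC box or TATAAA in capitals. They lie on the plus strand at chr9:108953336-108953585, chr11:51289670-51289919 and chr1:45311288-45311537. The count table starts Col7a1 further downstream, at position 108953745.
Col7a1: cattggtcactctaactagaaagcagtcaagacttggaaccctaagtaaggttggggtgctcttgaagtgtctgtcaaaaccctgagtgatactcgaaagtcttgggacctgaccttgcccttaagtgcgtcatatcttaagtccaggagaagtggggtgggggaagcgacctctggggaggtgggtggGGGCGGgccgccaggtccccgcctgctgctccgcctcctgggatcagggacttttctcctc
Col23a1: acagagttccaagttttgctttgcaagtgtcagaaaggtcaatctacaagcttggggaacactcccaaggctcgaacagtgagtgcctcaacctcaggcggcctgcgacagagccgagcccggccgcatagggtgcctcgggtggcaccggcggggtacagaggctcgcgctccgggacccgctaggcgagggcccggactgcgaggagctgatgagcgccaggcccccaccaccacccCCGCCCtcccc
Col3a1: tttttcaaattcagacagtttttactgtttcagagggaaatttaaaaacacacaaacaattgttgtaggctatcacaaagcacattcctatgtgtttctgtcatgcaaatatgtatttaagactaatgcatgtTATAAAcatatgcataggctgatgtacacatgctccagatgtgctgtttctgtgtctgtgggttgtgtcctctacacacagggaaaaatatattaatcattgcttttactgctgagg

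Each library held 15135457 to 18972281 counts in genes. The sorted cells expressed Epcam in all 8 libraries, at 575 ± 76.8 counts per 1000000 (CPM) with IgG and 305 ± 74.8 with anti-LIF (SD, n = 4 each; edgeR adjusted p = 0.0102). Lif, the target of the antibody, was at 81.4 ± 15.6 and 127 ± 7.08 CPM (adjusted p = 0.00965). The summed level of 30 epithelial markers was 7055 to 8266 CPM with IgG and 2870 to 4713 CPM with anti-LIF, and that of 26 myeloid markers was 17430 to 22652 and 32811 to 60570 CPM. Of these lists 24 epithelial markers fell and 0 rose, and 17 myeloid markers rose and 0 fell. Of all tested genes 15.7% rose and 16.5% fell. Scaled to the epithelial list 3 epithelial markers were higher and 1 lower, and scaled to the myeloid list 6 myeloid markers were higher and 6 lower. Each list set its own scaling there, so that near balance was built in. Genes of the acinar cell, which makes digestive enzymes, rose in 23 of 27 tested members (sums of 462 to 2418 and 3793 to 20674 CPM), and lymphoid markers rose in 4 of 11 (21.4 to 47.0 and 62.5 to 89.6 CPM, with no call higher under myeloid scaling). Fibroblast and stellate markers, 17 genes, summed to 73.5 to 139 and 60.9 to 123 CPM, with none at 0 in every library. Mouse anti-LIF-227 stood apart: its collagen counts were 0.0776% of its total, against 0.158% to 0.314% in the other 7 libraries, and it had the highest myeloid and the lowest epithelial sum. Collagen calls that change without it are given beside the gene. The part that the makeup of the sorted cells has in the collagen values was not tested, and in bulk samples fewer cells of a type and less RNA per cell cannot be told apart.

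Between the arms 4 collagens fell with anti-LIF and none rose under the standard scaling. They were Col4a2, Col7a1, Col12a1 and Col23a1, with falls of 1.67-fold to 3.68-fold. When the libraries were scaled to the epithelial marker list instead, none of the 4 was called and Col4a2 and Col7a1 changed sign (log2 0.02 and 0.25). The median of all tested genes was 1.01 under that scaling. Of the 44 collagens 33 passed the filter on low counts and were tested. The 4 called lower are 12.1% of them, beside 16.5% of all 14711 tested genes called lower, and the 0 called higher stand beside 15.7% called higher and 32.2% called either way (edgeR quasi-likelihood test, adjusted p under 0.05). At an unadjusted p under 0.05, 5 collagens were lower and 1 was higher, and the share of all genes at that threshold was not worked out. DESeq2 called 5 collagens lower and 1 higher, beside 2833 lower and 2876 higher of all 14711 tested genes. The median collagen log2 fold change was −0.36, against −0.01 for all tested genes. The arms did not overlap for 4 tested collagens, all with anti-LIF below (Col18a1, Col4a2, Col12a1 and Col23a1), where 18.2% of all tested genes lay fully below, 17.6% fully above and 35.7% either way. Which mice were included mattered: the number called lower was 0 without IgG-343, 1 without IgG-393, 1 without anti-LIF-354 and 2 without IgG-203, and 2 collagens were called higher without anti-LIF-227.

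**Figure D1:**
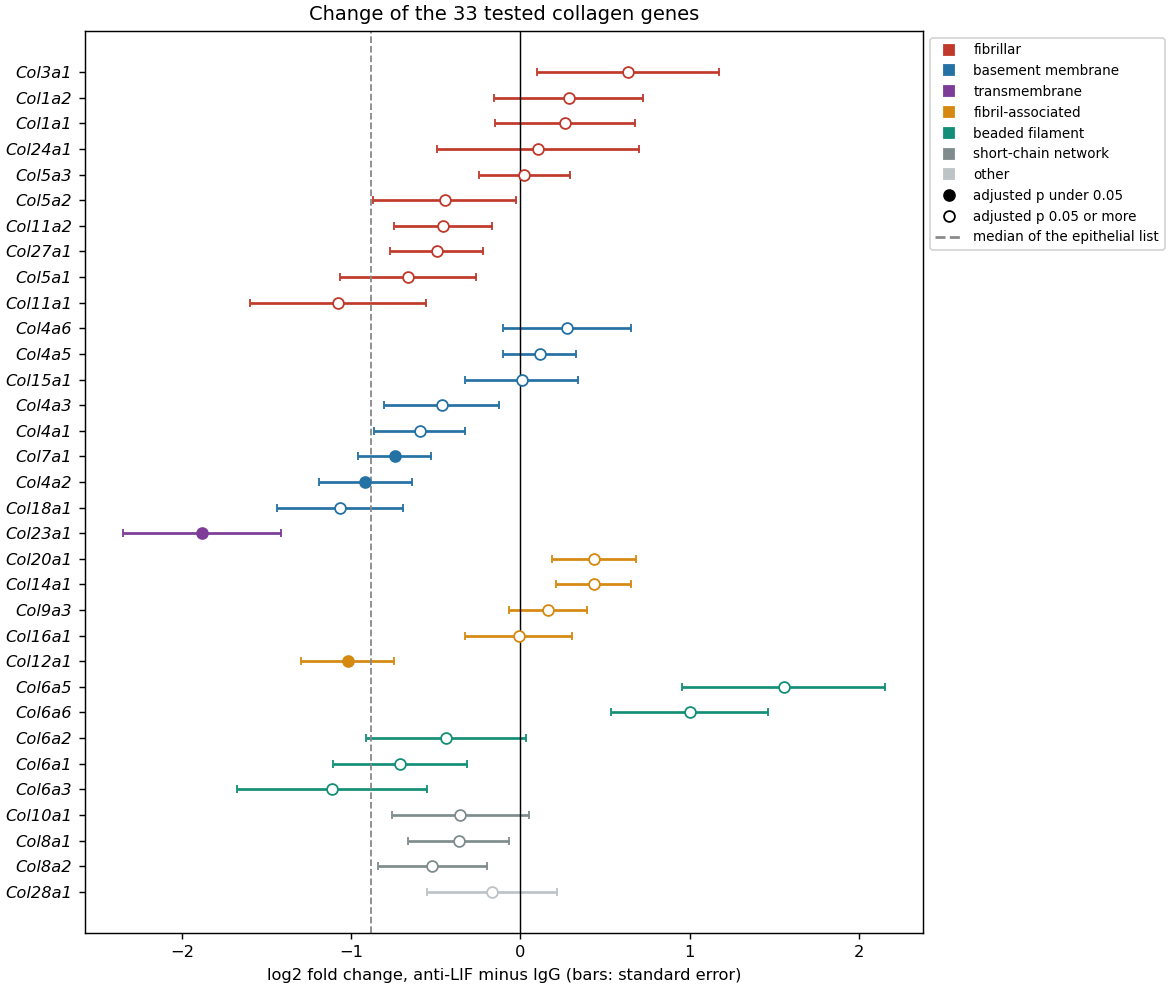
Log2 fold change (anti-LIF minus IgG, standard scaling) with its standard error for each of the 33 tested collagens, coloured by class, with filled points for an adjusted p under 0.05. The 4 filled points, Col4a2, Col7a1, Col12a1 and Col23a1, lie below 0, and scaled to the epithelial list Col4a2 and Col7a1 lie at 0.02 and 0.25; the dashed line is the median of the epithelial markers, −0.88.

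Per length, the most abundant collagen was a basement-membrane chain. Levels compared between genes are in fragments per kilobase per 1000000 reads (FPKM), worked out from the counts and the transcript length in the count table. Col18a1 averaged 74.1 FPKM over the 8 libraries, followed by Col3a1 at 35.5, Col4a1 at 20.6, Col1a2 at 18.4, Col6a1 at 17.6, Col1a1 at 15.8, Col14a1 at 14.9 and Col4a2 at 13.2. By arm, Col18a1 averaged 103 FPKM with IgG and 45.6 with anti-LIF, Col3a1 29.3 and 41.7, and Col4a1 25.5 and 15.6, so that Col4a1 came next after these with IgG but lay below Col1a2, Col1a1 and Col14a1 (19.5, 16.6 and 16.5) with anti-LIF. In anti-LIF-227 Col3a1 (17.3) was above Col18a1 (15.4). Neighbours in the pooled order overlapped in their ranges over the 8 libraries. The highest transmembrane level was that of Col23a1, at 0.231 FPKM. By value, anti-LIF-227 was the lowest of the anti-LIF libraries for most of these genes. The plot of collagen levels does not name the mice.

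**Figure D2:**
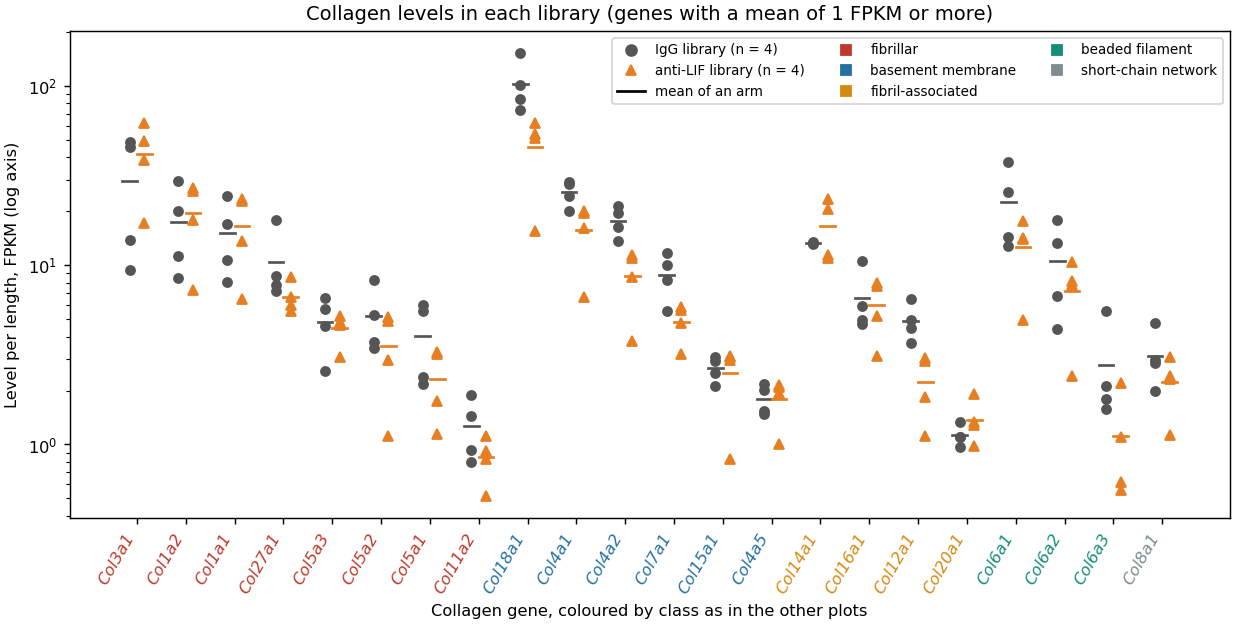
FPKM on a log axis in each library for the collagens with a mean of 1 FPKM or more, circles for IgG, triangles for anti-LIF and a line for the mean of each arm (n = 4). Col18a1, Col4a1, Col4a2 and Col12a1 have all 4 triangles below all 4 circles on this scale, which is set by library totals (for Col4a1 only just, 20.13 below 20.14), while the type I and III chains overlap. The share of all genes without overlap on this scale was not worked out.

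The type IV chains Col4a1 and Col4a2 build the main trimer of the basement-membrane sheet. Col4a2 was at 145, 128, 109 and 160 CPM in IgG-203, IgG-343, IgG-345 and IgG-393 and at 35.2, 92.3, 69.8 and 90.1 CPM in anti-LIF-227, anti-LIF-310, anti-LIF-354 and anti-LIF-391, the order used throughout. Every IgG value was above every anti-LIF value, and Col4a2 fell 1.89-fold, from 136 ± 22.1 to 71.8 ± 26.5 CPM (SD, n = 4; log2 −0.92 ± 0.27 SE, adjusted p = 0.0335). Col4a1 was at 219, 197, 165 and 220 CPM with IgG and at 63.2, 167, 135 and 165 CPM with anti-LIF. Its arms met at 165 to 167 CPM, though not on the FPKM scale, and the difference did not pass (log2 −0.60 ± 0.27, adjusted p = 0.122). Leaving out IgG-203, IgG-343, IgG-393 or anti-LIF-354 ended the call for Col4a2 (adjusted p = 0.0674, 0.0669, 0.0803 and 0.0766).

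Within each library the balance of the pair differed between the arms. The ratio of Col4a1 to Col4a2 FPKM was 1.48, 1.5, 1.48 and 1.34 with IgG and 1.75, 1.77, 1.89 and 1.79 with anti-LIF. The arms did not overlap, with means of 1.45 ± 0.07 and 1.80 ± 0.06 (SD, n = 4), and the lowest anti-LIF value came from anti-LIF-227. A ratio within a library does not depend on how libraries are scaled. Its difference between the arms does not say which of the chains moved, and it was not tested. The chains share 22 transcribed bases of 6561 and 6400, and sharing of reads between them was not tested.

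**Figure D3:**
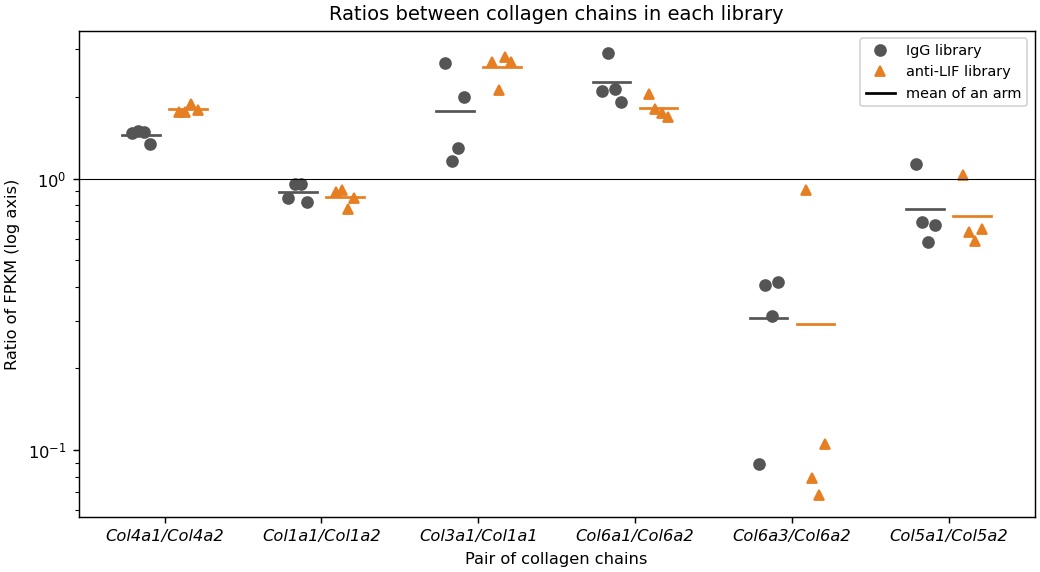
Ratio of FPKM between pairs of collagen chains in each library, on a log axis, with circles for IgG, triangles for anti-LIF and a line for the mean of each arm. For Col4a1/Col4a2 the anti-LIF ratios (1.75 to 1.89) all lie above the IgG ratios (1.34 to 1.5), and the arms overlap for the other 5 pairs.

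The other type IV chains form trimers with a narrower tissue range. Col4a5 was at 16.1, 16.0, 11.9 and 11.7 CPM with IgG and at 9.45, 15.8, 17.1 and 17.8 CPM with anti-LIF, and Col4a6 was at 6.08, 2.53, 3.65 and 6.81 CPM and at 2.81, 6.28, 7.35 and 6.58 CPM. Neither passed the test (log2 0.11 ± 0.21 and 0.27 ± 0.38, adjusted p = 0.713 and 0.608), and the arms of both overlapped. Col4a3 and Col4a4, partners of Col4a5 in the trimer of the kidney filter, lie head to head 72 bases apart and were near the detection limit. Col4a4 did not pass the filter, with 4, 10, 9 and 9 reads in the IgG libraries and 1 read in each anti-LIF library. Those 32 and 4 reads gave a fitted log2 fold change of −2.60 ± 0.50 when all genes with at least 1 count were tested, and it was called there (adjusted p = 0.00743). Col4a3 had 48 and 29 reads in all and overlapping arms (adjusted p = 0.319).

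Col7a1 encodes type VII collagen, the anchoring fibril that ties the epithelial basement membrane to the stroma. It was at 122, 92.0, 63.0 and 107 CPM with IgG and at 42.3, 54.4, 64.9 and 67.8 CPM with anti-LIF. The value of IgG-345 lay inside the anti-LIF range, and Col7a1 fell 1.67-fold (from 95.9 ± 25.2 to 57.4 ± 11.6 CPM, log2 −0.74 ± 0.22, adjusted p = 0.0302). The call ended without any 1 of IgG-203, IgG-343, IgG-393, anti-LIF-227, anti-LIF-310 and anti-LIF-354, with adjusted p of 0.0514 to 0.0714.

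Col18a1, the core of a heparan sulfate proteoglycan of basement membranes and the source of the fragment endostatin, had the largest difference in CPM of any collagen. It was at 545, 694, 510 and 997 CPM with IgG and at 125, 381, 365 and 442 CPM with anti-LIF. The arms did not overlap, and the means were 687 ± 222 and 328 ± 139 CPM, but the difference missed the threshold (log2 −1.06 ± 0.37, adjusted p = 0.0559). It passed with library totals as the only scaling (adjusted p = 0.0485), with DESeq2 (0.0130) and without anti-LIF-227 (log2 −0.79, adjusted p = 0.0391). Its long and short forms were not told apart. Col15a1, a related proteoglycan, was at 12.8, 16.4, 19.3 and 19.0 CPM with IgG and at 6.39, 20.6, 19.8 and 21.2 CPM with anti-LIF. Outside anti-LIF-227 these values lay between 12.8 and 21.2 CPM, and the arms overlapped (log2 0.01 ± 0.34, adjusted p = 0.989).

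Transmembrane collagens were scarce, and their reads were fewer with anti-LIF in each of the 4 genes. Their summed level was 0.388 to 0.679 FPKM with IgG and 0.109 to 0.260 FPKM with anti-LIF. The arms did not overlap on this scale, which is set by library totals. Most of the sum was Col23a1, at means of 0.369 of 0.539 FPKM with IgG and 0.093 of 0.158 FPKM with anti-LIF. As a percent of summed collagen FPKM, which does not depend on library scaling, the arms overlapped (0.09% to 0.303% and 0.053% to 0.103%). Col23a1, which is carried on the surface of some epithelial cells and can be shed, had 190 reads in the IgG arm and 42 in the anti-LIF arm. It was at 1.43, 3.51, 3.85 and 1.35 CPM with IgG and at 0.639, 0.668, 0.371 and 1.07 CPM with anti-LIF. The arms did not overlap, IgG-343 and IgG-345 were highest, and Col23a1 fell 3.68-fold (log2 −1.88 ± 0.47, adjusted p = 0.0172). Without IgG-343 the value was −1.69 (adjusted p = 0.05002), and scaled to the epithelial list it was −0.94 (adjusted p = 0.0740). The other 3 did not pass the filter. Col17a1, the hemidesmosome collagen of stratified epithelium, had 12, 6, 8 and 8 reads with IgG and 3, 3, 4 and 4 with anti-LIF. Col13a1, found at cell adhesion sites, had 6, 4, 3 and 7 reads and 0, 1, 1 and 3 reads. Col25a1, best known from neurons, had 2, 6, 6 and 2 reads and 1, 1, 2 and 3 reads. Only Col17a1 of these had arms that did not overlap, and with all genes of at least 1 count tested none of the 3 passed (adjusted p = 0.104, 0.123 and 0.340).

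The fibrillar chains did not pass the test in either direction: 0 of 10 tested members rose and 0 fell, where 15.7% of all tested genes rose and 16.5% fell, with a median log2 fold change of −0.21. Scaled to the epithelial list Col1a1, Col1a2, Col3a1 and Col5a3 were called higher, as were 11197 of all 14711 tested genes. Type I collagen joins Col1a1 and Col1a2 chains into the main fibre of scar tissue. Col1a1 was at 116, 58.4, 78.7 and 168 CPM with IgG and at 55.1, 175, 102 and 172 CPM with anti-LIF, and Col1a2 was at 120, 53.7, 72.3 and 180 CPM and at 54.4, 170, 117 and 178 CPM. The arms overlapped almost wholly (log2 0.26 ± 0.41 and 0.29 ± 0.44, adjusted p = 0.654 and 0.646). The pair moved from library to library together, with a Col1a1 to Col1a2 ratio of 0.821 to 0.958 in IgG and 0.770 to 0.904 in anti-LIF libraries. Col3a1, which forms a homotrimer that mixes into type I fibres, was at 289, 63.4, 95.3 and 316 CPM with IgG and at 138, 345.5, 269 and 435 CPM with anti-LIF. The arms overlapped, with IgG-343 and IgG-345 lowest, and the difference did not pass (log2 0.64 ± 0.54, adjusted p = 0.387). The interval set by these errors is wide, so a change of either sign could have gone undetected.

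The levels of type I and III chains were set beside the fibroblast and stellate markers of the same libraries. Those 17 markers summed to 95.0, 73.5, 92.8 and 139 CPM with IgG and to 60.9, 122, 111 and 123 CPM with anti-LIF. IgG-343 was lowest and IgG-393 highest of its arm, and anti-LIF-227 was lowest of the anti-LIF arm, both for the markers and for Col1a1, Col1a2 and Col3a1. The sums of endothelial markers had the same extremes, at 42.1, 69.1 and 26.0 CPM, so the match was not particular to fibroblasts. Mesothelial, pericyte and Schwann sums did not share all of them. The mesothelial sum was mostly Msln, at a mean of 562 of 599 CPM with IgG. Of the other mesothelial markers, Upk3b, Lrrn4 and Upk1b each had all of these extremes, and Wt1 and Bnc1 did not. IgG-203 and IgG-345 had close fibroblast sums (95.0 and 92.8 CPM) but Col3a1 at 289 and 95.3 CPM. Of 15 tested fibroblast markers (median 0.12) 2 rose, Fap, a serine protease of activated fibroblasts (log2 1.21), and Dpt, a small matrix protein (1.11), and 0 fell. Scaled to the epithelial list 10 were higher and 0 lower (median 1.07), and scaled to the myeloid list 0 were higher and 6 lower (−0.81). For all 14711 tested genes these counts were 11197 and 183 (median 1.01), and 213 and 11501 (−1.01). The part of any of these cell types in the fibrillar values was not tested.

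Minor fibrillar chains set the width of fibres by starting them from within. Col5a1 was at 57.6, 24.5, 22.5 and 54.6 CPM with IgG and at 13.9, 34.4, 18.4 and 34.0 CPM with anti-LIF, and Col5a2 at 40.0, 27.8, 30.5 and 63.7 CPM and at 10.6, 42.7, 24.5 and 41.1 CPM. Both overlapped between arms (log2 −0.66 ± 0.40 and −0.45 ± 0.42, adjusted p = 0.232 and 0.443). Col5a3 was at 45.5, 19.1, 34.4 and 40.5 CPM and at 40.7, 23.6, 40.2 and 37.3 CPM, and it was the type V chain in which anti-LIF-227 was not low (log2 0.02 ± 0.27, adjusted p = 0.955). Col27a1, a fibrillar chain known from cartilage, was at 156, 71.9, 82.5 and 64.0 CPM and at 60.9, 63.4, 57.6 and 83.4 CPM. The high IgG value came from IgG-203 alone (log2 −0.50 ± 0.27, adjusted p = 0.191). Col11a2, of the same minor group, was at 10.7, 7.47, 6.48 and 14.5 CPM and at 4.85, 7.54, 6.86 and 9.27 CPM, with overlapping arms (log2 −0.46 ± 0.29, adjusted p = 0.252).

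Within each library the makeup of collagen transcripts nevertheless differed between arms. Basement-membrane chains made up 41.7%, 62.9%, 52.4% and 50.4% of summed collagen FPKM with IgG and 29.7%, 34.6%, 39.7% and 33.9% with anti-LIF. Fibrillar chains made up 33.4%, 17.5%, 24.9% and 30.6% with IgG and 41.8%, 42.6%, 39.3% and 43.6% with anti-LIF. The arms did not overlap for either class, with means of 51.9 ± 8.68% and 34.5 ± 4.09% for basement membrane and 26.6 ± 7.0% and 41.8 ± 1.84% for fibrillar chains (SD, n = 4), and these shares were not tested. They do not depend on library scaling, but as shares of 1 whole, a fall of 1 class lifts the other, and the shares do not say which class moved. Summed FPKM, which are set by library totals, were 117 to 217 with IgG and 31.2 to 104 with anti-LIF for basement membrane, without overlap, and 43.2 to 132 and 43.9 to 134 for fibrillar chains. Scaled to the epithelial list, which put the median of all tested genes at 1.01, Col18a1 (−0.15), Col4a1 (0.34), Col4a2 (0.02) and Col7a1 (0.25) were not called. Col1a1 (1.17), Col1a2 (1.20) and Col3a1 (1.57) were called higher there. Relative to that median they were at −1.16, −0.67, −0.99 and −0.76, and at 0.16, 0.19 and 0.56, in that order. Under the standard scaling these distances from the median of all tested genes were −1.06, −0.59, −0.91 and −0.74, and 0.27, 0.29 and 0.64. Subtracting the median of a scaling removes the shift it adds to every gene, so their closeness was built in. Without Col18a1 the difference in basement-membrane share was −9.63 percentage points in place of −17.4, and the arms still did not overlap.

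**Figure D4:**
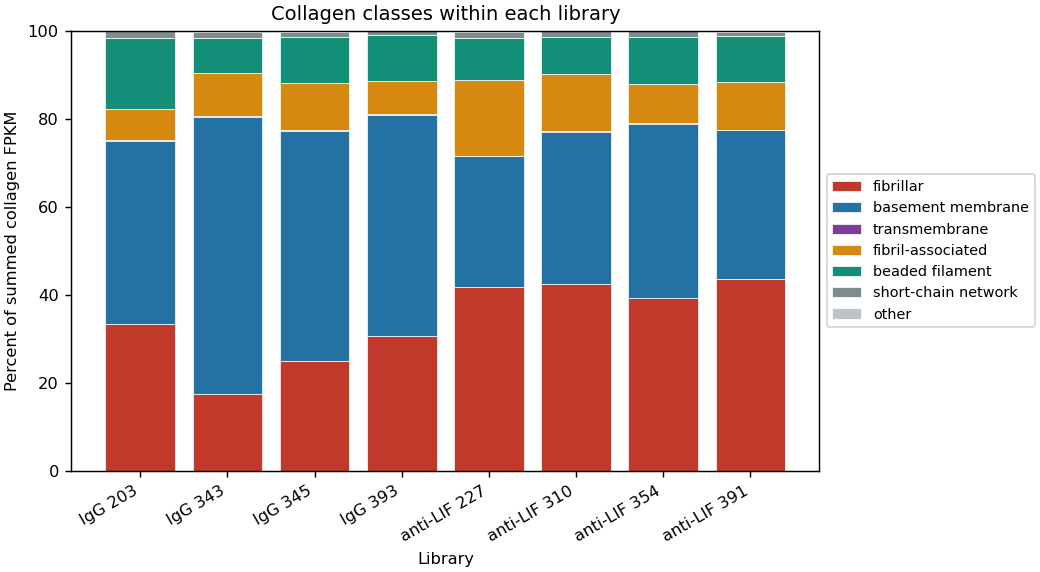
Percent of summed collagen FPKM held by each structural class in each library. The basement-membrane band takes 41.7% to 62.9% of the IgG bars and 29.7% to 39.7% of the anti-LIF bars, and the fibrillar band 17.5% to 33.4% and 39.3% to 43.6%.

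Fibril-associated collagens sit on the surface of fibres and link them to other matrix, and 1 of 5 tested members fell and 0 rose, where 16.5% of all tested genes fell. Col12a1, which decorates type I fibres, was at 66.2, 64.1, 53.6 and 88.7 CPM with IgG and at 18.8, 44.6, 27.3 and 43.7 CPM with anti-LIF. The arms did not overlap and Col12a1 fell 2.03-fold (from 68.2 ± 14.7 to 33.6 ± 12.7 CPM, log2 −1.02 ± 0.28, adjusted p = 0.0234). The call was lost without IgG-343 (adjusted p = 0.0503) or IgG-393 (0.0600), without anti-LIF-354 (0.0642) and under epithelial scaling (log2 −0.09). Col14a1, its closest relative by structure, did not follow it, at 96.5, 106, 106 and 101 CPM with IgG and 106, 189, 89.0 and 169 CPM with anti-LIF. The IgG values were within 10 CPM of each other and the anti-LIF values were spread to both sides of them (log2 0.43 ± 0.22, adjusted p = 0.163). Without anti-LIF-354 Col14a1 was called higher (log2 0.60, adjusted p = 0.0466). Col16a1, a minor fibre-bound chain, was at 35, 29.5, 31.8 and 63.9 CPM and at 23.1, 49.7, 33.8 and 52.6 CPM (log2 −0.01 ± 0.32, adjusted p = 0.982). Col20a1, a scarce member of this group, was at 4.65, 5.66, 5.72 and 6.54 CPM and at 11.5, 6.74, 5.19 and 7.12 CPM (log2 0.44 ± 0.25, adjusted p = 0.203). Mouse anti-LIF-227 was the highest library for Col20a1, unlike most collagens.

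Type VI collagen forms beaded filaments from trimers of Col6a1, Col6a2 and 1 further chain that varies. Of its 5 tested members 0 rose and 0 fell, where 15.7% of all tested genes rose and 16.5% fell. Col6a1 was at 171, 61.9, 71.1 and 118 CPM with IgG and at 28.5, 69.6, 70.8 and 88.7 CPM with anti-LIF, and Col6a2 at 76.2, 20.1, 31.1 and 58.2 CPM and at 13.0, 36.4, 38.3 and 49.3 CPM. Both arms overlapped (log2 −0.71 ± 0.40 and −0.44 ± 0.47, adjusted p = 0.197 and 0.504). Col6a3, the usual further chain, was at 19.7, 23.8, 28.5 and 70.5 CPM and at 34.5, 8.41, 7.66 and 15.2 CPM. Of the anti-LIF libraries only anti-LIF-227 was inside the IgG range (log2 −1.11 ± 0.56, adjusted p = 0.158), and without it Col6a3 was called lower (log2 −1.77, adjusted p = 0.0319). The ratio of Col6a3 to Col6a2 FPKM was 0.0888, 0.405, 0.313 and 0.416 with IgG and 0.909, 0.0792, 0.0686 and 0.105 with anti-LIF, so 1 library of each arm lay with the other arm. Col6a5, an alternative to it, went the other way, at 8.20, 2.75, 2.33 and 6.05 CPM with IgG and 5.04, 10.1, 10.3 and 31.3 CPM with anti-LIF. It did not pass (log2 1.56 ± 0.60, adjusted p = 0.0758), except by DESeq2 (0.0210), scaled to the epithelial list (log2 2.45, adjusted p = 0.000444) or without anti-LIF-227 (log2 1.84, adjusted p = 0.0401). Its tandem neighbour Col6a6 was at 1.19 ± 0.24 and 2.4 ± 1.5 CPM (log2 1.00 ± 0.46, adjusted p = 0.127), and it was called higher without anti-LIF-227 and scaled to the epithelial list (log2 1.89, adjusted p = 0.000654).

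The short-chain network collagens form hexagonal sheets, and 0 of 3 rose or fell, where 15.7% of all tested genes rose and 16.5% fell. Col8a1, made by vessels and the eye, was at 27.9, 18.6, 12.6 and 17.1 CPM with IgG and at 8.37, 20, 15 and 15.8 CPM with anti-LIF, with overlapping arms (log2 −0.36 ± 0.30, adjusted p = 0.372). The 8 tested collagens not given by library, Col4a3, Col6a6, Col8a2, Col9a3, Col10a1, Col11a1, Col24a1 and Col28a1, had log2 fold changes of −1.08 (Col11a1) to 1.00 (Col6a6), and none passed. Of the 11 untested collagens the highest mean was 0.357 CPM, in Col2a1, the cartilage chain. Besides the 4 already given, these were Col2a1 with 31 and 18 reads in the IgG and anti-LIF arms, Col9a2 with 20 and 18, and Col6a4, Col9a1, Col19a1, Col22a1 and Col26a1 with at most 6 reads in an arm.

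The 4 falls, and Col18a1, which was not called, were set beside the epithelial markers, whose median log2 fold change in the same libraries was −0.88. Relative to that median, Col4a2 was at −0.03, Col7a1 at 0.14, Col12a1 at −0.14 and Col18a1 at −0.18, and Col23a1 at −0.997. The first 4 of these differences lay between −0.1813 and 0.1421, and that of Col23a1 lay below them. These differences from the list were not tested. Relative to the median of all tested genes, Col4a2 was between −0.99 and −0.84 and Col7a1 between −0.76 and −0.71 in all 6 scalings. Col12a1 was between −1.10 and −0.96, Col18a1 between −1.16 and −0.98 and Col23a1 between −1.95 and −1.87. Subtracting the median of a scaling removes the shift it adds to every gene, so this near constancy was built in. Scaling to the epithelial list put the median of all 14711 tested genes at 1.01 and called 11197 of them higher and 183 lower. It called 14 collagens higher and 0 lower, including Col1a1, Col1a2 and Col3a1. Scaling to the myeloid list put that median at −1.01 and called 24 collagens lower and 0 higher, beside 11501 and 213 of all genes. Higher calls were 48.7% of all calls under the standard scaling, 28.6% with library totals alone and 31.3% by limma-trend on log2(FPKM + 1). They were 98.4% with the epithelial list and 1.82% with the myeloid list.

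Of 38 tested genes for collagen modification, folding, trimming and cross-linking, 14 fell and 5 rose, with a median of −0.29, where 16.5% of all tested genes fell and 15.7% rose. Scaled to the epithelial list 22 were higher and 3 lower (median 0.66), and scaled to the myeloid list 0 were higher and 31 lower. Of all 14711 tested genes 11197 were higher and 183 lower under epithelial scaling (median 1.01), and 213 and 11501 under myeloid scaling. Those with the lowest p fell: Bmp1 and Tll1, proteases that cut the C-terminal end off fibrillar procollagens (log2 −1.49 and −2.48), Adamts14, which cuts the N-terminal end (−2.12), and Fkbp7, a prolyl isomerase of the endoplasmic reticulum (−0.96). Bmp1 went from 312 ± 64.4 to 111 ± 40.6 CPM (adjusted p = 0.00621). Of 10 tested collagen receptors 4 fell and 1 rose (median −0.25), and under epithelial scaling 0 were lower and 6 higher (0.70). The tyrosine kinase Ddr1 fell from 170 ± 21.5 to 91.7 ± 22.3 CPM (−0.89), Itgb1, the common chain of collagen-binding integrins, fell by 0.44 on the log2 scale, and Cd44 fell by 0.40. Lair1, an inhibitory collagen receptor of leukocytes, rose (0.85). Of 16 collagen-cutting enzymes and inhibitors 4 fell and 0 rose (median −0.19), and under epithelial scaling 2 were lower and 9 higher (0.73). Those that fell were the cathepsins Ctsk (−1.91) and Ctsl (−0.67) and the metalloproteases Mmp7 (−1.86) and Mmp16 (−1.32).

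Type IV, VII, XVII and XVIII collagens bind laminins and other proteins at the base of the epithelial cell. Of 20 tested noncollagenous basement-membrane genes 9 fell and 2 rose (median −0.66), where 16.5% of all tested genes fell and 15.7% rose. Under epithelial scaling 1 was lower and 5 higher (0.31), beside 183 lower and 11197 higher of all 14711 tested genes (1.01). The falls under the standard scaling included the laminin chains Lamb3 (−1.22), Lama5 (−1.34) and Lamb1 (−1.11), among those of lowest p. Of 8 hemidesmosome genes, 3 of which are laminin chains in the list before, 7 fell and 0 rose (median −0.66), and under epithelial scaling 1 was lower and 2 higher (0.32). They included Cd151 (−0.59) and Itgb4 (−0.69). Of 25 partners of the fibrillar matrix 1 fell and 1 rose (median −0.05). Under epithelial scaling 0 were lower and 16 higher (0.90, against 1.01 for all tested genes). The 2 called under the standard scaling were Ltbp1, which stores latent TGF-beta (−1.10), and Prelp, a proteoglycan (1.496).

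**Figure D5:**
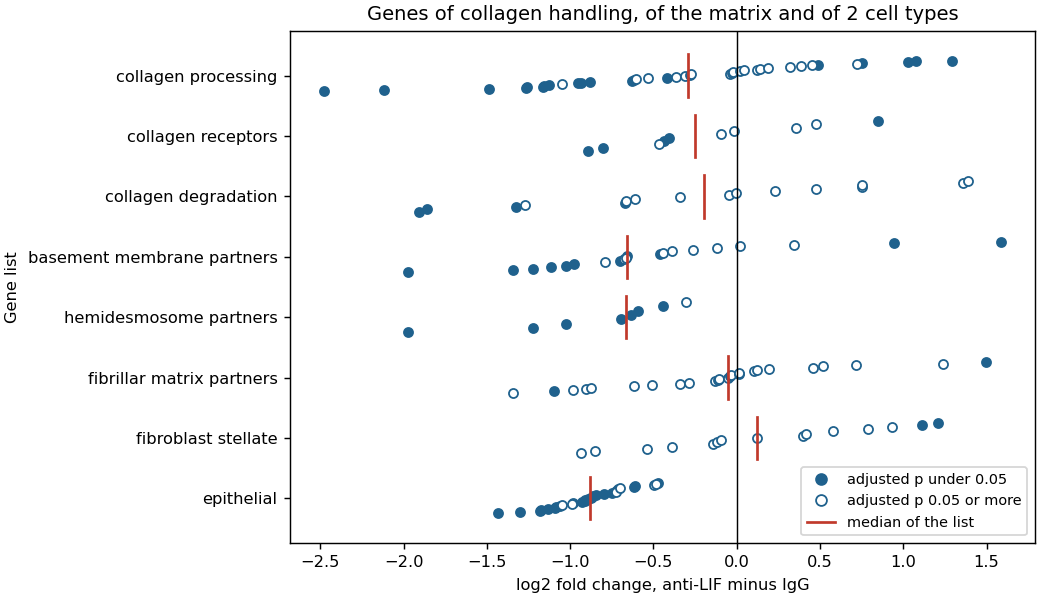
Log2 fold change (anti-LIF minus IgG, standard scaling) of each tested gene in the lists of collagen processing, receptors, degradation, matrix partners and 2 cell types, with filled points for an adjusted p under 0.05 and a red line for the median. Medians lie at −0.66 for basement-membrane and hemidesmosome partners, −0.05 for fibrillar matrix partners, 0.12 for fibroblast markers and −0.88 for epithelial markers under the standard scaling. With libraries scaled to the epithelial list they are 0.31, 0.32, 0.90, 1.07 and 0.08, against 1.01 for all tested genes. The value of 0.08 is set by that scaling itself, which uses the epithelial markers.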

How the data were processed

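The deposited table of raw counts and the deposited FPKM table of 8 libraries were used. Per the submitters' processing notes, reads were checked with FastQC 0.11.2 and aligned to mm10 with STAR 2.4.0k. Counts are exonic reads with 1 transcript kept per gene, by HOMER per the file headers; edgeR 3.6.8 is named for the authors' comparison, not used here. For strand setting and annotation version, the sources used here give nothing. The authors' FPKM values equal counts per transcript length and header total within 0.002 in 167977 of 168000 values. Where the tables use different transcripts (6 collagens, Col18a1 among them), FPKM was computed from the counts.

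Genes passing filterByExpr were tested with edgeR 4.0.16 (R 4.3.3) by its quasi-likelihood test after TMM scaling, with Benjamini-Hochberg adjustment over 14711 genes and a threshold of 0.05. CPM are counts per 1000000 of TMM-scaled library size. Fold changes are on the log2 scale and positive where anti-LIF is higher. Counts limit precision, and without molecular identifiers read totals cover counting error only. Alternatives were other scalings, DESeq2 1.42.0, limma 3.58.1 (voom, and trend on FPKM values logged after adding 1 or 0.1), other filters and leaving out each mouse. On simulated data (14564 genes) 22.7% of genes changed 1.5-fold, 59.1% changed 2-fold and 95.5% changed 4-fold were recovered, and 7 of 124 calls were false. Only 66 genes were changed at each fold, in both directions and without a shift in cell makeup. In the data 32.2% of tested genes were called, so these rates need not hold there. Members, classes and gene lists were chosen with earlier results of these data known. Values by library are given for collagens that passed, had a mean of 5 CPM or more or were trimer partners, and from each list the up to 4 called genes of lowest p are named. Some genes and alleles are not reported here. There were 0 unused columns of single samples.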

Additional observations from a re-analysis of the deposited data

Results flagged for a closer look

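In 6 of 80 groups of 4 libraries 1 library stood far from the other 3, judged by its gap to the nearest library as a share of the range of the group (Dixon test at the 95% level); chance marks about 1 in 20 groups, and chains and ratios that share a gene are not independent. Mouse anti-LIF-227 had the lowest Col15a1, at 6.39 CPM against 19.8 to 21.2 CPM in the rest of its arm. The same mouse had the highest ratio of Col6a3 to Col6a2 FPKM, 0.909 against 0.0686 to 0.105, and the highest ratio of Col5a1 to Col5a2, 1.03 against 0.591 to 0.651. Mouse IgG-393 had the highest Col16a1, at 63.9 CPM against 29.5 to 35 CPM, and the lowest ratio of Col4a1 to Col4a2, 1.34 against 1.48 to 1.5. Mouse IgG-203 had the highest ratio of Col6a1 to Col6a3, 23.7 against 4.59 to 7.13.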

How the results depend on the processing

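No paired analysis was possible because the arms share no mouse number. Under upper quartile or RLE scaling, limma-voom and a filter of 1 CPM in at least 4 libraries, the same 4 collagens were called lower and 0 higher. Library totals alone and limma-trend on either FPKM scale added Col18a1, and testing all genes with at least 1 count added Col4a4. Scaled to the epithelial list, 14 collagens were higher and 0 lower (all genes 11197 and 183), and 16 of the 20 negative changes turned positive, among them Col4a2 (0.0155), Col7a1 (0.25), Col16a1 (0.92) and Col8a1 (0.60). Scaled to the myeloid list, 24 were lower (all genes 213 higher and 11501 lower), and 11 of the 13 positive changes turned negative, among them Col1a1, Col1a2, Col3a1, Col4a5 (−0.84), Col20a1 (−0.66) and Col5a3 (−0.997); all but Col6a5 and Col6a6 were then below 0. Those lists set the zero point, which moves every gene. With library totals alone 1430 genes were higher, with limma-trend on log2(FPKM + 0.1) 1535, and DESeq2 called 1 collagen higher; the cause was not tested. Chosen after seeing the data, leaving out Col18a1 put the basement-membrane difference at −9.63 percentage points and counting type IV chains alone as basement membrane at −8.91, since those chains leave the sum.

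Leaving out each mouse in turn gave 0 to 2 collagens higher, 0 to 5 lower, 1467 to 2218 genes higher and 1507 to 2136 lower in all, a basement-membrane difference of −20.8 to −13.7, a fibrillar difference of 12.2 to 17.5 and a Col4a1/Col4a2 difference of 0.313 to 0.366. Depth limits the scarce chains: Col23a1 rests on 190 and 42 reads per arm and each untested collagen on fewer.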
